A study of Mus musculus with 12 samples.

Results

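Cytoplasmic ribosomal protein genes were followed in mouse embryonic stem (ES) cells in which doxycycline switched on a Neurog1 transgene. The genes were chosen by name alone: a gene was a member if its probe set carried a single symbol beginning with Rpl or Rps and ending as the large and small subunit proteins do (for example Rpl19, Rps4x, Rplp0 or Rpsa). This gave 46 of the 18193 genes with a single annotated symbol, 24 of them large-subunit (Rpl) and 22 small-subunit (Rps) genes. Of the 46, 44 were among the 12629 genes bright enough to test. The others were Rps16, listed between 0.218 and 1.23 signal units on the 12 arrays, and Rpl3l, the paralog of Rpl3 known from muscle, listed between 1.08 and 31.2.

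A ribosome is built from a small and a large subunit, each an RNA core dressed with ribosomal proteins. The subunits are assembled in the nucleolus, where RNA polymerase I makes the large ribosomal RNA precursor and a large set of assembly factors trims and folds it. Mammalian ribosomal protein mRNAs begin with a C followed by a run of pyrimidines, the TOP motif, through which mTORC1 and Larp1 control their translation.

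The parent line, E14 of strain 129P2/OlaHsd in its Ainv15 form, carried a tetracycline-sensitive transgene for Neurog1, a proneural transcription factor. All cells were grown in medium with serum, leukaemia inhibitory factor, puromycin and G418. The groups were uninduced cells from maintenance culture (0 h) and cells given doxycycline at 1 ug/ml for 24 h, 48 h or 72 h, with 3 arrays labelled biological replicates in each. The labels name 1 engineered line and give uninduced cells at 0 h alone, so effects of transgene, of doxycycline and of days in culture cannot be told apart, and p-values measure the spread between these 12 arrays.

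Neurog1, whose probe set may read the transgene, the endogenous gene or both, read 465 to 1152 signal units on the 9 induced arrays, against 4.53 to 18.7 on the 3 uninduced arrays. At 72 h all 12 ES cell markers on a fixed list were lower than in uninduced cells, for example Pou5f1 by a log2 difference of -4.80 ± 0.45 (SE, n = 3 per group, limma adjusted p = 4.24e-06), and 11 of 12 neuron markers were higher, for example Dcx at 6.22 ± 0.31 (adjusted p = 6.7e-08). The summed signal of the ES cell markers was 5093 to 5931 at 72 h, against 47498 to 52135 in uninduced cells, and that of the neuron markers was 29481 to 32256, against 4135 to 4708. The fibroblast and feeder list (12 genes, 5 tested, 1 called higher and 1 lower) summed to 293 to 510 at 72 h, against 219 to 257, and the mesoderm and endoderm list (11 genes measured, 8 tested, 3 higher and 0 lower) to 271 to 491, against 137 to 267. Of all tested genes, 23.8% were called higher and 17.5% lower at 72 h. The part of these markers in the ribosomal protein values was not tested. In bulk RNA, fewer cells of a type and less RNA per cell cannot be told apart. One array stood apart: the first 24 h array correlated with the other 2 of its group at r = 0.826 and 0.804 over the probe sets of the 12629 tested genes, against 0.961 or more for every other pair within a group, and its Pcx 3' to 5' ratio was 6.81, against 1.22 to 2.80 on the other 11 arrays.

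The sequence around the annotated transcription start is shown for 9 members: the genes whose lower signal held, or appeared, under a second scaling of the arrays (Rpl39l, Rps25, Rpl12, Rpl14 and Rps6; Rps4l is named only), Rpl39 as the partner of Rpl39l, and 3 of the brightest members (Rpl13a, Rpl38 and Rplp2). Each line gives 30 bases 5' to 3', 15 of them before the start, from RefSeq on GRCm38.p6. Capitals mark a C followed by at least 5 bases that are each C or T, beginning within 10 bases of the start; the run in Rpl13a reaches the end of the printed window.
Rpl39l, chr16:10170213-10170242, plus strand: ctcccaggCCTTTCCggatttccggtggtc
Rps25, chr9:44407699-44407728, plus strand: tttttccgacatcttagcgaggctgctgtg
Rpl12, chr2:32961697-32961726, plus strand: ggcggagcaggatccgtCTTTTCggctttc
Rpl14, chr9:120571502-120571531, plus strand: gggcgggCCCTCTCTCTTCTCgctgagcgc
Rps6, chr4:86857353-86857382, minus strand: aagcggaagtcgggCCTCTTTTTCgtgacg
Rpl39, chrX:37085208-37085237, minus strand: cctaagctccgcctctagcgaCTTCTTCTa
Rpl13a, chr7:45128731-45128760, minus strand: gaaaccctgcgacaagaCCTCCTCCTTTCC
Rpl38, chr11:114668565-114668594, plus strand: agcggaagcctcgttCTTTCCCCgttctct
Rplp2, chr7:141447636-141447665, plus strand: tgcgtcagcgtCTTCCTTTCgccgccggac

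Promoter sequences were matched for 40 of the 46 members, with 48 annotated starts. Such a pyrimidine run lay at 23 of the 48 starts (47.9%), against 19.2% of all 32851 promoters in the same table. Within the 300 bases from 250 before the start to 50 after it, on either strand, the ETS-type letters CCGGAAG lay in 20 of 48 (41.7%, against 8.86% of all), AAGATGGCG, the letters of a YY1 motif, in 2 (4.17%, against 1.40%), the E-box CACGTG in 5 (10.4%, against 7.15%) and the TATA letters TATAAA in 5 (10.4%, against 13.6%). CCGGAAG and AAGATGGCG can overlap in their shared letters AAG. The lines above with a run include members that fell under one scaling and members that fell under both, and Rps25 has no run in this window. A match is a description of the letters and not a site.

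The 44 tested members were among the brightest probe sets of every array. Their median signal lay between 10253 and 13169 on the uninduced arrays, 9384 and 12270 at 24 h, 8088 and 8546 at 48 h, and 6517 and 8252 at 72 h. The 3 arrays at 48 h and the 3 at 72 h therefore lay below all uninduced arrays, while the 24 h arrays overlapped them. As a share of all summed signal the 46 members made up 2.88 to 2.95% at 48 h and 2.51 to 3.00% at 72 h, against 3.33 to 3.99% in uninduced cells. The tops of the arrays moved with them: the 99th percentile of all signals was 3538 to 3765 at 48 h and 3379 to 3844 at 72 h, against 4535 to 4885 in uninduced cells, and the 75th percentile was 149 to 159 at 72 h, against 116 to 120 in uninduced cells. The members' median signal lay at percentile 99.67 to 99.72 of its array at 72 h, against 99.75 to 99.78 in uninduced cells.

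**Figure D1:**
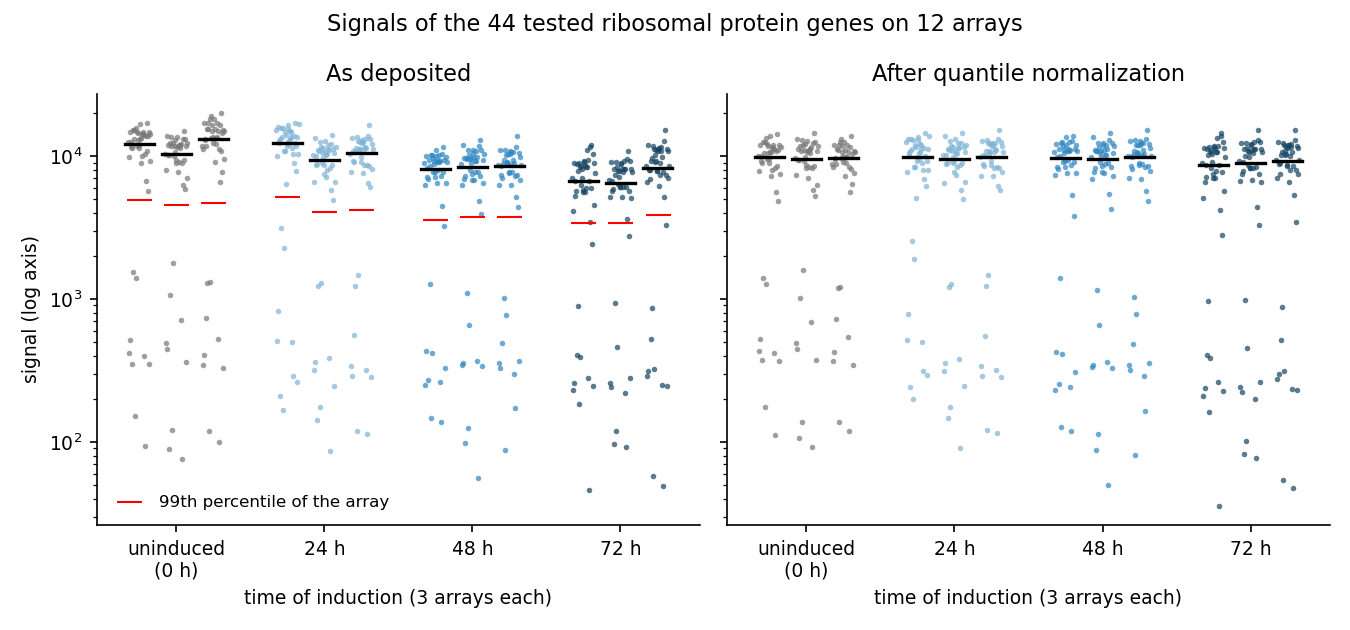
Signals of the 44 tested ribosomal protein genes on each of the 12 arrays (log axis), as deposited on the left and after quantile normalization on the right; each point is a gene, black bars are the median of the members on an array and red bars, in the left panel, the 99th percentile of all probe sets on that array. As deposited, the member medians fall to 6517 to 8252 at 72 h, against 10253 to 13169 in uninduced cells, and the red bars fall with them.

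As deposited, ribosomal protein genes were lower from 48 h on. Differences are of log2(signal + 16), induced minus uninduced, and a gene was called at a Benjamini-Hochberg adjusted p under 0.05 over all 12629 genes in limma. The 3 comparisons with uninduced cells share the same 3 control arrays. At 24 h, 0 of 44 members were called in limma, beside 10.1% of all genes called in either direction (7.36% higher and 2.76% lower), although 3 members had an unadjusted p under 0.05; their median difference was -0.15, against 0.10 for all genes. Without the first 24 h array 1 member was called lower at 24 h, Rpl35 (-0.40), beside 23.0% of all genes called in either direction. At 48 h, 28 of 44 members were lower and 0 higher, beside 13.0% of all genes lower and 21.1% higher (34.1% in all), with a median of -0.50 against 0.10 for all genes. At 72 h, 34 were lower and 0 higher, beside 17.5% of all genes lower and 23.8% higher (41.3% in all), with a median of -0.67 against 0.08. All 28 genes called at 48 h were called at 72 h, where Rpl10a, Rpl7, Rps15, Rps19, Rps27l and Rps9 were called in addition.

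The 48 h count rested on single arrays more than the 72 h count did. Without 1 of the uninduced arrays, the 48 h count was 16 (without the first), 29 (without the second) and 8 (without the third). Without 1 of the 48 h arrays it was 12, 18 and 16, beside 25.1%, 25.2% and 27.6% of all genes called in either direction. Without the first 24 h array, which enters the shared estimate of spread, it was 36, beside 53.4% of all genes. The 72 h count ran from 27 to 41 over the 12 arrays left out in turn. It was 41 without the first 24 h array, beside 58.8% of all genes. With all 12 arrays, 34.1% of all genes were called in either direction at 48 h and 41.3% at 72 h. The share of all genes called thus moved with single arrays too, and these ranges are not particular to the members.

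Both subunits took part. At 72 h, 18 of 23 tested large-subunit genes were lower (median -0.72) and 16 of 21 small-subunit genes were lower (median -0.59). The stalk proteins, which recruit the translation GTPases to the large subunit, behaved like the rest as deposited. Rplp2 had signals of 9263, 8764 and 10845 at 72 h, against 16697, 13507 and 18203 in uninduced cells, a difference of -0.74 ± 0.15 (SE; limma adjusted p = 0.00133). Rplp0 had 5635, 6030 and 7871, against 8910 to 12353 in uninduced cells (-0.74 ± 0.19, limma adjusted p = 0.00727). Neither gene's groups overlapped.

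Rpsa, a small-subunit protein also known as the laminin receptor precursor, differed by -0.79 ± 0.16 at 72 h (limma adjusted p = 0.00151), a call lost with the mean of all its probe sets (-0.42, adjusted p = 0.116). Rpl11, which binds Mdm2 when ribosome assembly is disturbed, had signals of 4138, 5131 and 6536 at 72 h, against 9898, 7993 and 11246 in uninduced cells. Its difference of -0.89 ± 0.20 (limma adjusted p = 0.00322) and that of Rpl19 (-0.89 ± 0.19, limma adjusted p = 0.00207) were the largest falls after those of Rpl39l, Rps4l and Rps25. Rps29, a small-subunit protein among the 5 members with the highest mean signal, read 11919, 10824 and 15305 at 72 h, against 17044, 15010 and 19956 in uninduced cells, so that its groups overlapped. Its fall of -0.46 ± 0.15 was called in limma (adjusted p = 0.0302), and the call was lost without the first or the third uninduced array (adjusted p = 0.0691 and 0.124) or without the first or second 72 h array (adjusted p = 0.0964 and 0.132).

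Between induced times fewer members differed. From 24 h to 48 h, 3 of 44 were lower and 0 higher, beside 6.87% of all genes lower and 9.37% higher (16.2% in all): Rpl39l (-1.42 ± 0.28), Rps4l (-0.69 ± 0.21) and Rpl27 (-0.53 ± 0.16; limma adjusted p = 0.0413). Only Rpl39l was called in limma under each of the 12 leave-one-out fits (adjusted p at most 0.0468 over all alternatives). The count was 1 without the first 24 h array, any 1 of the 48 h arrays, the second 72 h array or the first or second uninduced array, and 5 without the second 24 h array. From 48 h to 72 h, 0 members were called in limma, beside 0.681% of all genes in either direction (0.546% higher and 0.135% lower), and 1 had an unadjusted p under 0.05; the median difference was -0.19, against -0.03 for all genes.

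Quantile normalization, which gives all 12 arrays the same distribution of signals, removed most of these differences. At 48 h, 2 of 44 members were then lower, Rpl39l and Rps25, beside 15.1% of all genes lower and 17.1% higher (32.2% in all). At 72 h, 6 were lower and 0 higher, beside 21.0% of all genes lower and 19.9% higher (40.9% in all), so that the share of members (13.6%) was below that background. The members' median difference was -0.036 at 48 h and -0.12 at 72 h, against -0.039 and -0.087 for all genes. At 24 h, 0 members were called in limma and 0 had an unadjusted p under 0.05, beside 9.03% of all genes called (6.35% higher and 2.68% lower). For 48 h against 24 h, Rpl39l alone was lower, beside 9.17% of all genes lower and 7.77% higher (16.9% in all). For 72 h against 48 h, 0 were called in limma and 3 had an unadjusted p under 0.05, beside 0.744% of all genes called (0.586% higher and 0.158% lower). Relative to the median of all genes, which moved by more than 0.1 between the scalings (at 72 h 0.08 as deposited, -0.09 after quantile normalization and -0.24 after centring each array on its median), the members' median at 72 h stood at -0.75 as deposited and after centring and at -0.04 after quantile normalization. Centring shifts every gene of an array by the same amount, so it cannot change this gap. After centring each array on its median, 37 members were called lower at 48 h and 40 at 72 h, beside 36.0% and 44.2% of all genes called in either direction. In all, 9 members had a positive difference at 72 h after quantile normalization, against 0 as deposited: Rps10, Rps14, Rps20, Rps24, Rps26, Rps28, Rps29, Rps4x and Rps7, all of the small subunit. None of the 9 was called in limma after quantile normalization, although Rps10 and Rps20 had an unadjusted p under 0.05, and Rps14, Rps24, Rps26, Rps29, Rps4x and Rps7 were called lower as deposited. Of the members described above, Rplp2 differed by -0.16, Rplp0 by -0.14, Rpsa by -0.18, Rpl11 by -0.35 and Rpl19 by -0.31 after quantile normalization (limma adjusted p = 0.171, 0.372, 0.220, 0.0508 and 0.0602).

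Both scalings parted for the bright members above all. In 35 of the 44, every uninduced signal exceeded 5000. This class was set on the arrays that are also the baseline of the differences, and Rps4l, for example, read 2403 to 3282 at 72 h. Of the 35, 32 were lower at 72 h as deposited and 1 (Rps4l) after quantile normalization, with medians of -0.69 and -0.08. Among the 9 dimmer members (Rpl12, Rpl14, Rpl27a, Rpl37, Rpl39, Rpl39l, Rps25, Rps27 and Rps6), 2 were lower as deposited and 5 after quantile normalization, with medians of -0.51 and -0.79. Calls of these 9 rest on the probe set used, and which transcripts it reports was not tested. By construction, a probe set that keeps its rank at the top of every array has the same value on all of them after quantile normalization: Rps29 read 14532, 15211 and 15211 at 72 h, against 14156, 14532 and 13704 in uninduced cells (0.085 ± 0.080, limma adjusted p = 0.424). Rpl13a, known in human cells for an extraribosomal role in silencing inflammatory mRNAs, differed by -0.62 ± 0.15 as deposited (limma adjusted p = 0.00459) and -0.03 ± 0.09 after quantile normalization (0.801). Rpl38, needed in mice for translation of certain Hox mRNAs, differed by -0.64 ± 0.14 (limma adjusted p = 0.003) and -0.05 ± 0.08 (0.637).

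**Figure D2:**
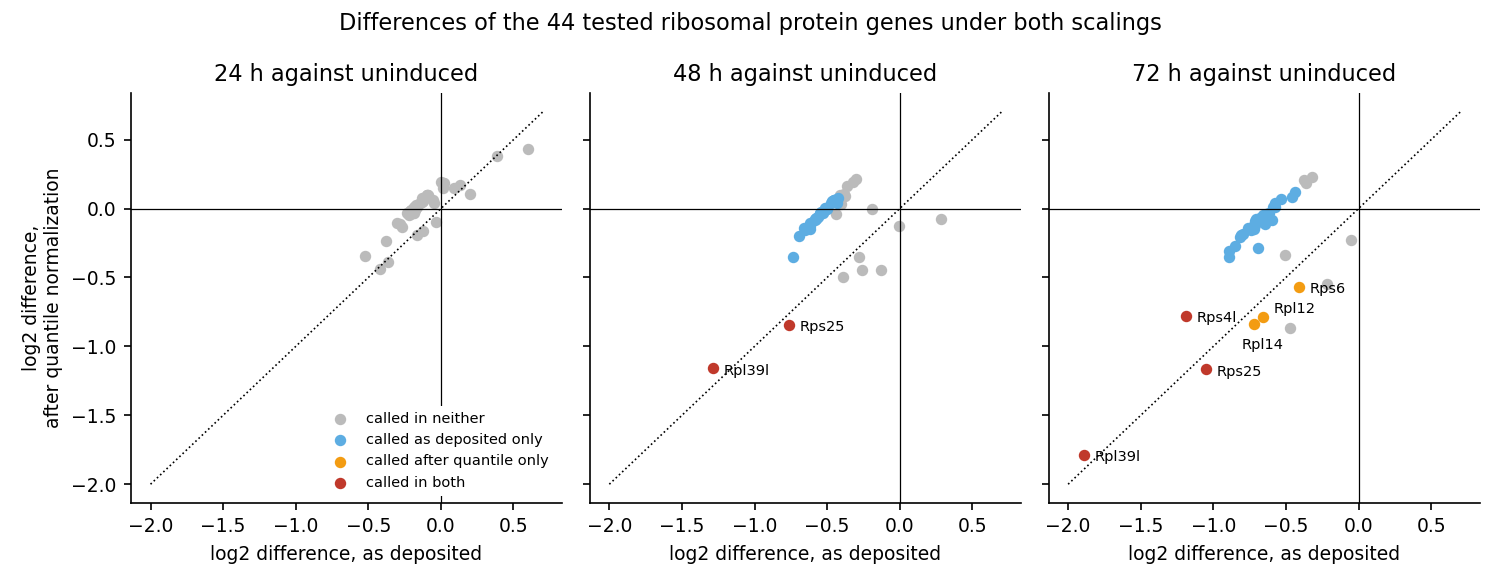
Log2 differences of the 44 tested members against uninduced cells at 24, 48 and 72 h, as deposited (x axis) and after quantile normalization (y axis); each point is a gene, colours give where it was called, and the dotted line marks equal differences. At 72 h the 34 genes called as deposited lie between -1.89 and -0.44 on the x axis, and 6 genes (named) were called after quantile normalization.

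The first 24 h array also bore on this comparison through the shared spread. With that array left out, quantile normalization gave 4 members lower and 1 higher (Rps10) at 48 h, beside 26.3% of all genes lower and 25.8% higher, and 12 lower and 3 higher (Rps10, Rps20 and Rps28) at 72 h, beside 31.0% lower and 27.5% higher. The differences themselves stayed as they were, since that array is not in these groups. Rps10, a small-subunit protein, was higher by 0.21 ± 0.07 at 72 h in that fit (limma adjusted p = 0.0199), against -0.37 ± 0.15 as deposited (0.0613), and Rpl19 lower by -0.31 ± 0.10 (limma adjusted p = 0.0156). This fit was added after the data were seen.

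Rpl39l, Rps4l and Rps25 were called lower at 72 h under both scalings. Rpl39l encodes a paralog of the large-subunit protein Rpl39 that is known in mice for its use in testis. Its signals were 393, 461 and 325 at 72 h, 421, 661 and 774 at 48 h and 2272, 1293 and 1469 at 24 h, against 1404, 1774 and 1309 in uninduced cells. The signals at 48 h and 72 h lay below every uninduced and every 24 h signal, and those at 24 h overlapped the uninduced ones. The difference was 0.13 ± 0.28 at 24 h (limma adjusted p = 0.802), -1.28 ± 0.28 at 48 h (limma adjusted p = 0.00367) and -1.89 ± 0.28 at 72 h (limma adjusted p = 0.000181). In uninduced cells the fitted level was 3.70-fold that at 72 h. After quantile normalization the differences were -1.16 ± 0.26 and -1.79 ± 0.26 (limma adjusted p = 0.00421 and 0.000146).

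Rpl39 itself was one of the dimmest members tested. It read 184, 118 and 57.3 at 72 h, against 153, 121 and 118 in uninduced cells, and its groups overlapped. Its difference of -0.22 ± 0.33 was not called (limma adjusted p = 0.629); without the third 72 h array the difference was 0.17. Whether Rpl39l and Rpl39 differ in response was not tested, and a signal of one probe set does not compare with that of another.

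Rps4l, a paralog of the X-linked Rps4x, read 2403, 2765 and 3282 at 72 h, 3252, 3905 and 4382 at 48 h and 7870, 4938 and 6085 at 24 h, against 5712, 5862 and 7744 in uninduced cells. All 72 h and 48 h signals lay below all uninduced signals. The difference was -0.74 ± 0.21 at 48 h (limma adjusted p = 0.0151), a call that was lost without the first 48 h array or the third uninduced array (adjusted p = 0.0722 and 0.0717), and -1.19 ± 0.21 at 72 h (limma adjusted p = 0.000595). After quantile normalization the 72 h difference was -0.78 ± 0.15 (limma adjusted p = 0.00138). Rps4x read 10288, 9189 and 11185 at 72 h, against 13896, 13086 and 14492 in uninduced cells. It was lower by -0.44 ± 0.12 as deposited (limma adjusted p = 0.0116; 0.0613 without the second 72 h array and 0.125 with the mean of its probe sets) and differed by 0.12 ± 0.12 after quantile normalization (0.442), so that its direction turned with the scaling.

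Rps25, a small-subunit protein that some viral internal ribosome entry sites depend on, read 279, 220 and 250 at 72 h, 261, 368 and 300 at 48 h and 496, 384 and 317 at 24 h, against 401, 712 and 523 in uninduced cells. Its 48 h and 72 h signals lay below all uninduced signals. The difference was -1.05 ± 0.26 at 72 h (limma adjusted p = 0.00623) and -1.17 ± 0.26 after quantile normalization (limma adjusted p = 0.00281), and as deposited it was not called without the 4 arrays numbered 3 (adjusted p = 0.0701). The 48 h call (-0.76 ± 0.26, limma adjusted p = 0.0393) was lost in 8 of the 12 fits that left out 1 array, with adjusted p up to 0.160 without the second uninduced array.

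**Figure D3:**
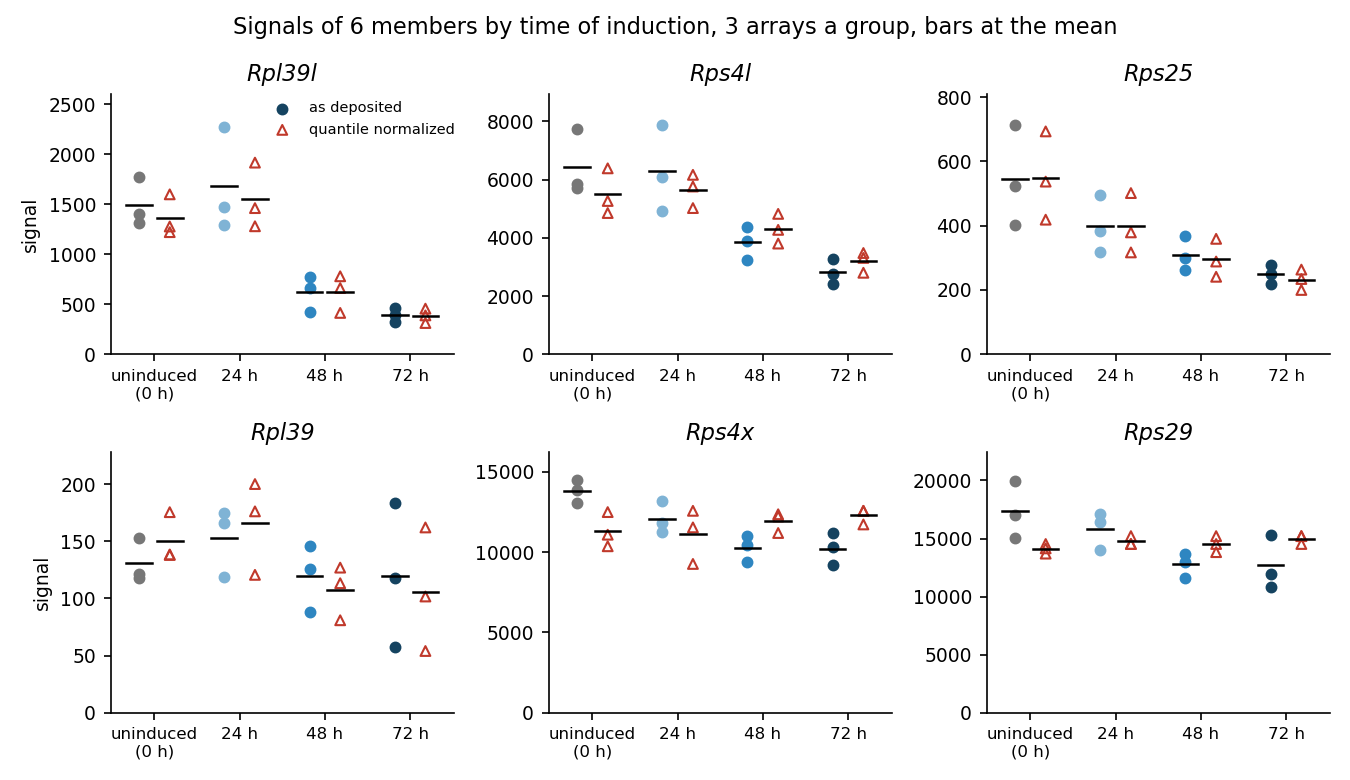
Signals (linear axis from 0) of Rpl39l, Rps4l, Rps25, Rpl39, Rps4x and Rps29 by time of induction, with 3 arrays a group; filled circles are deposited signals, open triangles quantile-normalized signals and bars the mean of 3. Rpl39l, Rps4l and Rps25 fall under both, to means of 393, 2817 and 249 at 72 h as deposited, against 1496, 6439 and 545 in uninduced cells.

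Rpl12, Rpl14 and Rps6 were called at 72 h after quantile normalization and not as deposited. Rps6, the substrate of the S6 kinases downstream of mTORC1, read 244, 279 and 248 at 72 h, against 351, 362 and 326 in uninduced cells, with no overlap. Its difference was -0.41 ± 0.19 as deposited (limma adjusted p = 0.104) and -0.57 ± 0.19 after quantile normalization (limma adjusted p = 0.0279). Rpl12, which forms the base of the stalk, differed by -0.66 ± 0.25 (limma adjusted p = 0.0502) and -0.79 ± 0.25 (0.0221). Rpl14, a large-subunit protein, differed by -0.72 ± 0.32 (limma adjusted p = 0.093) and -0.84 ± 0.31 (0.0463).

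Rps27l, a p53-responsive paralog of Rps27, was lower by -0.69 ± 0.19 at 72 h as deposited (limma adjusted p = 0.011), a call lost without the first or the second 72 h array (adjusted p = 0.0554 and 0.0502). Rps27 was dim, at 46.2, 91.9 and 49.3 at 72 h, against 93.5, 75.5 and 100 in uninduced cells, and its difference of -0.47 ± 0.43 was not called (limma adjusted p = 0.409). Rpl27a, a large-subunit protein, varied more between arrays of a group than between times. Its signals on the arrays numbered 1 were 352, 210, 273 and 407 at 0, 24, 48 and 72 h, on those numbered 2 they were 88.9, 143, 98.6 and 97.1, and on those numbered 3 they were 732, 558, 494 and 521. The array numbered 2 was the lowest and the array numbered 3 the highest at every time, and the 72 h difference of -0.06 ± 0.79 was not called (limma adjusted p = 0.963).

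**Figure D4:**
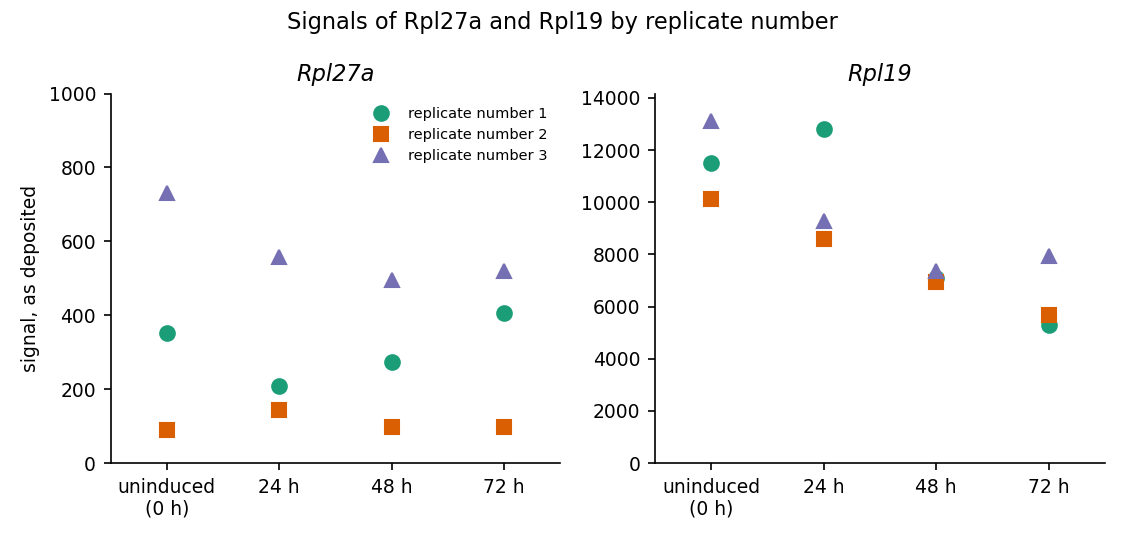
Deposited signals of Rpl27a and Rpl19 by time of induction, with the replicate number from the labels as colour and shape. The Rpl27a signals keep the order of the numbers at every time (88.9 to 143 for number 2, 494 to 732 for number 3), and the Rpl19 signals fall to 5278 to 7953 at 72 h, against 10121 to 13103 in uninduced cells.

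The 46 members had 100 probe sets, and 23 members had more than 1. Of the probe sets used, 14 carried the suffix _x_at, which marks probes that can match other transcripts; ribosomal protein genes have many processed pseudogenes, so a signal may include RNA of near-identical copies. Another 28 matching symbols stood only on probe sets with several symbols and were not members. Of 84 member probe sets with a median signal above 100, 79 had a negative difference at 48 h and 81 at 72 h as deposited. The 3 exceptions at 72 h were 1 probe set each of Rpl22, Rpl7 and Rps3. The Rpl7 one read 5762, 5661 and 6773 at 72 h, against 6103, 7828 and 3254 in uninduced cells, a difference of 0.17 with overlapping groups. The Rpl22 probe set read 1108, 1137 and 949 at 72 h, against 267, 351 and 375 in uninduced cells, while the one used read 6723, 6652 and 8041, against 12467, 11919 and 13028. The Rps3 one read 750, 794 and 686 at 72 h, against 285, 603 and 486, while the one used read 5964, 5722 and 7362, against 10869, 9315 and 10917. An Rps20 probe set too dim for that count read 98.5, 116 and 96.8 at 72 h, against 31.1, 61.6 and 39.1. Which transcripts these probe sets report was not tested, and the calls of Rpl22 and Rps3 as deposited (-0.81 ± 0.13 and -0.71 ± 0.16; limma adjusted p = 0.000361 and 0.0035) rest on the probe set used. With the mean of all probe sets the differences were -0.041 and 0.058, and after quantile normalization of the probe set used they were -0.19 and -0.12 (limma adjusted p = 0.128 and 0.393).

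Genes that make ribosomes were followed on separate lists, and a difference between these lists and the ribosomal proteins was not tested. On the list of ribosome assembly factors, 71 of 97 were lower at 72 h and 0 higher as deposited (median -1.17), and 72 were lower after quantile normalization (median -1.16). These shares of 73.2% and 74.2% stood beside 17.5% and 21.0% of all genes lower. At 48 h the counts were 55 and 57 (56.7% and 58.8%, beside 13.0% and 15.1% of all genes lower). At 24 h they were 18 and 15 (18.6% and 15.5%, beside 2.76% and 2.68%). Utp14a, of the small-subunit processome, differed by -1.95 ± 0.40 at 72 h (limma adjusted p = 0.00182). Rrp9, a protein of the U3 small nucleolar particle, differed by -1.79 ± 0.52 (limma adjusted p = 0.0143; 0.0594 without the third 72 h array and 0.0633 without the first uninduced array). Tcof1, a nucleolar cofactor of ribosomal RNA transcription, was lower already at 48 h (-1.72 ± 0.40, limma adjusted p = 0.00562).

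These list counts also moved with single arrays. Without the first 24 h array, 92 of 97 assembly factors were lower at 48 h and 92 at 72 h, and 67 at 24 h. Of all genes, 53.4%, 58.8% and 23.0% were then called in either direction at these times. Over the 12 arrays left out in turn, the assembly count ran from 2 to 67 at 24 h, 33 to 92 at 48 h and 53 to 92 at 72 h; the lowest came without the first uninduced, the second 48 h and the second 72 h array, one for each time.

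RNA polymerase I and its factors, 18 genes, had 11 lower and 0 higher at 72 h as deposited (median -0.85) and 12 lower after quantile normalization (median -0.97). These shares of 61.1% and 66.7% stood beside 17.5% and 21.0% of all genes lower. Without 1 array the deposited count ran from 7 (without the second 72 h array) to 14. Znrd1, a subunit of the enzyme, differed by -1.47 ± 0.25 (limma adjusted p = 0.000427), and Polr2e, shared by all 3 nuclear RNA polymerases, by -1.93 ± 0.30 (0.000268). The Polr2e call rested on an _x_at or _s_at probe set; without such probe sets it was -0.29 (adjusted p = 0.520). Of 76 mitochondrial ribosomal proteins, 51 (67.1%) were lower and 0 higher at 72 h under each scaling (medians -0.95 and -0.97), beside the same shares of all genes. With 1 array left out, the deposited count lower ran from 38 to 65. Mrps18b read 263, 303 and 355 at 72 h, against 1345, 1361 and 1351 in uninduced cells (-2.09 ± 0.30, limma adjusted p = 0.000127), and Mrps24 differed by -1.74 ± 0.39 (0.00307).

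Translation initiation genes were called in both directions. Of 36 initiation genes, 18 were lower and 3 higher at 72 h as deposited (median -0.70), and 11 lower and 4 higher after quantile normalization (median -0.43). The shares lower were above the 17.5% and 21.0% of all genes lower under these scalings. The shares higher, 8.33% and 11.1%, were below the 23.8% and 19.9% of all genes higher. Eif4e3, a cap-binding protein, read 1049, 956 and 807 at 72 h, against 30.5, 22.3 and 29.5 in uninduced cells (4.45 ± 0.24, limma adjusted p = 8.23e-08). Eif4g3, a scaffold of the cap-binding complex, was higher by 1.76 ± 0.22 (limma adjusted p = 3.96e-05). Eif4ebp1, which holds back Eif4e when mTORC1 is inactive, was lower by -1.40 ± 0.29 (limma adjusted p = 0.00211), and Eif3d by -1.36 ± 0.29 (0.00209). Of 13 elongation and release genes, 5 were lower at 72 h as deposited (8 without the first 24 h array) and 2 after quantile normalization, among them Eef1d (-1.53 ± 0.25 as deposited, limma adjusted p = 0.000354). The share lower was 38.5% as deposited, beside 17.5% of all genes. After quantile normalization it was 15.4%, below the 21.0% of all genes.

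Other mRNAs known to begin with a TOP motif, made up a list of 18 genes, some of which also stand on the lists above. Of the 18, 8 were lower and 1 higher at 72 h as deposited (median -0.46, and 5 lower without the first 72 h array), and 2 lower and 1 higher after quantile normalization (median 0.01). The share lower was 44.4% as deposited, beside 17.5% of all genes. After quantile normalization it was 11.1%, below the 21.0% of all genes. The share higher was 5.56% under each scaling, beside 23.8% and 19.9%. The higher one was Vim, an intermediate filament gene (1.25 ± 0.21, limma adjusted p = 0.00047). Btf3, a subunit of the nascent polypeptide-associated complex, was lower by -0.94 ± 0.19 (limma adjusted p = 0.00137), a call lost without _x_at and _s_at probe sets (-0.26, adjusted p = 0.280) and with the mean of all probe sets (-0.45, adjusted p = 0.0961). In addition, 3 ribosomal proteins outside the naming rule could be measured. Fau, which encodes Rps30 fused to a ubiquitin-like protein, was lower by -0.89 ± 0.23 at 72 h (limma adjusted p = 0.00835) and differed by -0.42 ± 0.16 after quantile normalization (0.0516). Rpl7l1, the Rpl7 paralog of ribosome assembly, was lower under both scalings (-0.87 ± 0.19 and -0.72 ± 0.17; limma adjusted p = 0.00254 and 0.00415). Rpl22l1, the Rpl22 paralog, was not called (-0.24 ± 0.21 as deposited and 0.16 ± 0.21 after quantile normalization; limma adjusted p = 0.378 and 0.579).

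**Figure D5:**
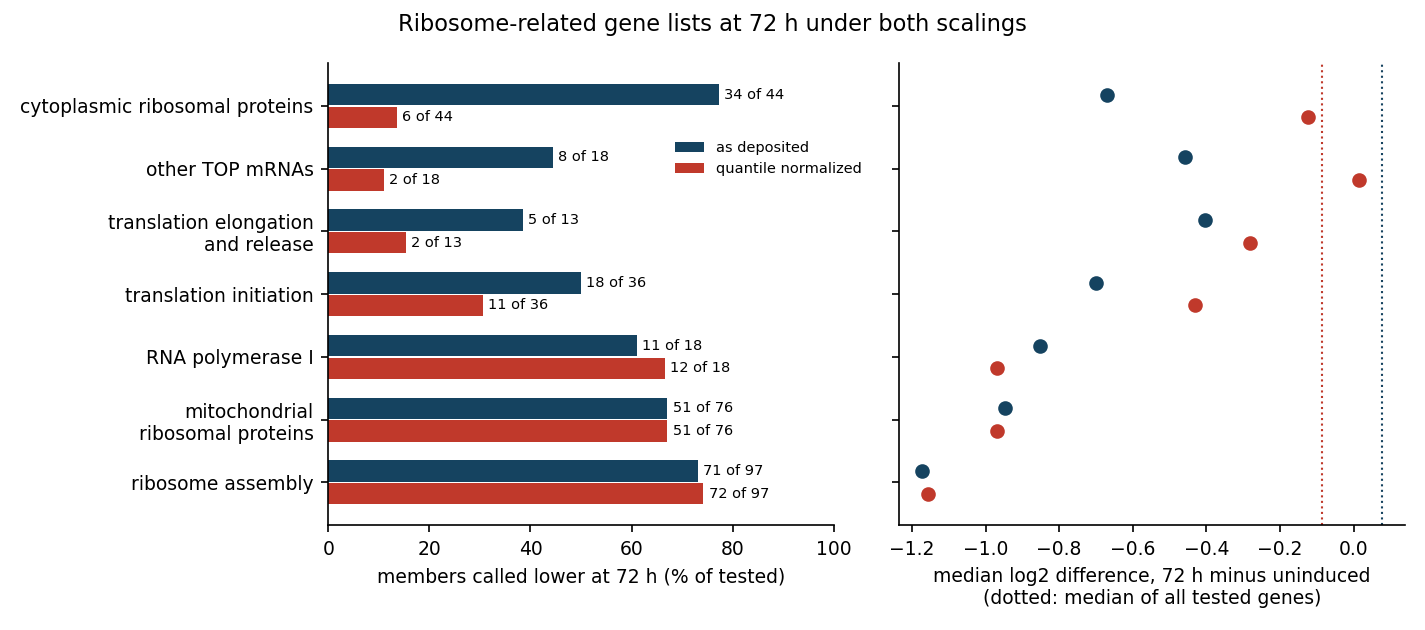
Ribosome-related lists at 72 h against uninduced cells, as deposited (dark) and after quantile normalization (red); the left panel gives the percentage of tested list members called lower and the right panel the median log2 difference, with dotted lines at the median of all tested genes. Cytoplasmic ribosomal proteins go from 34 of 44 to 6 of 44 between the scalings, and ribosome assembly factors from 71 of 97 to 72 of 97. Of all tested genes, 17.5% and 21.0% were called lower.

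Of 32 regulators on a list of Myc and mTORC1 control, 7 were higher and 8 lower at 72 h as deposited (4 to 9 higher and 5 to 9 lower with 1 array left out; 5 lower without the second 72 h array), beside 23.8% of all genes higher and 17.5% lower, so that these shares (21.9% and 25.0%) lay near the background. Myc, a transcriptional activator of ribosome production, read 66.6, 88.0 and 228 at 72 h, against 408, 482 and 536 in uninduced cells (-1.93 ± 0.37, limma adjusted p = 0.00109). Mycl, a Myc paralog, was higher by 3.03 ± 0.42 (limma adjusted p = 0.000111), and Mxd4, which competes with Myc for Max, by 2.83 ± 0.33 (2.51e-05). These 3 calls held after quantile normalization. The genes outside the rule whose log2 signals followed the members' per-array median most closely were Eef1b2 (r = 0.979), an elongation factor subunit from a TOP mRNA, Atp5a1 (r = 0.977), of the mitochondrial ATP synthase, and Ran (r = 0.977), the nuclear transport GTPase, over 12 arrays that share their scaling; these values are a description.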

How the data were processed

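Total RNA of 12 samples had been made into biotinylated cRNA and hybridised to Affymetrix arrays, per the labels' protocols. The deposited values are intensity signals on a linear scale, 1 per probe set, and MAS5 is the tool that the submitters' processing notes name for them. Settings: not given in the sources used here. In the deposited tables the 2% trimmed mean was 150 on each array. With 3 arrays a group, precision is limited by their number.

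Of 45101 probe sets, 64 were controls, 34945 had 1 gene symbol in the platform annotation, 932 several and 9160 none. Each gene was represented by the probe set with the highest mean of log2(signal + 16). Genes above their array's median (percentile 50) on at least 3 of 12 arrays were tested, 12629 of 18193. A model with 4 group means was fitted in R 4.3.3 by limma 3.58.1 (lmFit, contrasts.fit, eBayes with trend), two-sided, with Benjamini-Hochberg adjustment over all tested genes. The fit was tested on simulated data. This scale understates changes of dim genes. Values after quantile normalization of all non-control probe sets were fitted the same way. Members, lists and tests were chosen with earlier results of these data known. Named genes followed a written rule: in each comparison the largest falls among called members, the brightest and dimmest members, stalk genes and Rpsa, paralogs with their partners, members whose probe sets or scalings disagree, and, for each list, the 2 largest rises and falls among called genes, all listed ribosomal proteins outside the symbol rule, and the 3 genes nearest to the members' median; Rpl35, Rps10, Rpl12, Rpl14 and Rps6 were named after their values were seen. For promoters, RefSeq sequences of GRCm38.p6 were used. The array annotation's build: not given in the sources used here.

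Samples share replicate numbers 1 to 3. Deviations from group means correlated at r = 0.0467 to 0.567 between same-numbered samples, above 0.1 in 16 of 18 pairs. Between samples of other numbers they ran from -0.460 to 0.301, above 0.1 in 3 of 36 pairs. Within the comparisons made here, same-numbered values were all above 0.1 except at 72 h against uninduced (0.0771 to 0.124). The lowest, 0.0467, was between 24 h and 72 h, which were not compared. The labels do not say what a number marks. Alternatives were quantile normalization, median centring, other pseudocounts and filters, other probe set choices, 2 groups alone, array weights, the replicate block and each array left out.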

Additional observations from a re-analysis of the deposited data

How the results depend on the processing

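The direction of the members' median against uninduced cells at 48 h and 72 h was negative in every alternative run, but the counts were not stable. Under quantile normalization all genes shared this sign, with medians of -0.039 at 48 h and -0.087 at 72 h. The negative sign there is therefore no fall of the members relative to all genes at 48 h. After quantile normalization the called members numbered 2 at 48 h, 6 at 72 h and 1 for 48 h against 24 h, with medians of -0.036, -0.12 and -0.053; with the first 24 h array also left out (added after seeing the data) they were 5, 15 and 1, with medians of -0.036, -0.12 and -0.014. Median centring gave medians of -0.80, -0.99 and -0.51 and 5 calls for 48 h against 24 h, beside 17.8% of all genes called in either direction. Without a filter there were 17 calls at 48 h, beside 22.3% of all genes, and 1 for 48 h against 24 h, beside 9.93%. For 48 h against 24 h, the groups of that comparison alone also gave 1, beside 7.77%. Without the 4 arrays numbered 3 (added after seeing the data) there were 2 at 48 h and 1 for 48 h against 24 h. That fit has fewer arrays in every group, so its counts are not read as a trait of the members. Array weights gave 23 calls for 72 h against 48 h, beside 18.9% of all genes called in either direction. The equal-weight fit gave 0 there, beside 0.681% of all genes. The cause of these changes was not tested.

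Leaving out 1 array at a time, counts ran from 0 to 1 at 24 h, 8 to 36 at 48 h, 27 to 41 at 72 h, 1 to 5 for 48 h against 24 h and 0 to 0 for 72 h against 48 h, and medians from -0.27 to -0.06, -0.57 to -0.43, -0.78 to -0.59, -0.44 to -0.23 and -0.28 to -0.12. The fit with the replicate block called 0, 30, 37, 3 and 0 members in the same order. It added Rpl7 and Rps28 at 48 h and Rps10, Rps20 and Rps28 at 72 h, and changed no other member's call. Of all genes it called 12.8%, 37.3%, 44.9%, 19.4% and 0.721% in either direction. Without the block these shares were 10.1%, 34.1%, 41.3%, 16.2% and 0.681%.

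Single genes that turned direction were not called as deposited unless stated. Rpl39l at 24 h was -0.13 with array weights and -0.10 to 0.30 with 1 array left out. At 72 h, quantile normalization with or without the first 24 h array turned Rps29 (0.085), Rps4x (0.12), Rps14 (0.068), Rps24 (0.0095), Rps26 (0.038) and Rps7 (0.014), all called as deposited, and Rps10 (0.21), Rps28 (0.19), Rps20 (0.23) and Rpl22l1 (0.16). Without _x_at and _s_at probe sets Rps20 was 1.03 at 72 h and called higher, beside 40.7% of all genes called in either direction. It was called higher there for 48 h against 24 h too (1.36), beside 15.7%. As the mean of all its probe sets Rps20 was 0.36 at 72 h. By that mean Rps3, called with its brightest probe set, was 0.058. At 48 h each of these probe set choices called 1 member higher, beside 33.3% and 31.4% of all genes called in either direction. Without the arrays numbered 3, Rpl39 was 0.11 and Rpl27a 0.16, and with 1 array left out they ran from -0.56 to 0.17 and -0.83 to 0.64. Over all genes named with a difference, 1349 values under alternatives kept their call and direction, 49 gained a call, 95 lost one and 31 turned.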
